A study of Mus musculus with 9 samples.

Results

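The TRIM ubiquitin ligase family was followed in splenic B cells from mice with leukemia driven by a human transgene. Members were the rows of the deposited gene table whose symbol is Trim followed by a number, which gave 68 of 22174 genes, and no expression value entered the choice. RNA-sequencing was available for 9 mice, with 1 library per mouse and 3 mice in each of 3 groups. All mice were of strain C57/BL6NTac. Eµ-MTCP1 mice carried human MTCP1 and Eµ-TCL1 mice carried human TCL1A, both directed to B cells by the Eµ immunoglobulin heavy chain enhancer. Wildtype mice carried no transgene. The study sequenced Eµ-MTCP1 mice of a single founder line, Z36, in which the transgene had integrated in an intron of Fam168a on chromosome 7. Ages were not given in the sources used here for these 9 mice. B cells were enriched with a pan B cell kit, so each transgenic library is a splenic B cell pool and not a sorted leukemic clone. Nothing in the labels gives a shared litter or day.

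TRIM proteins carry an N-terminal RING finger, B-box zinc fingers and a coiled coil, and most act as ubiquitin ligases whose C-terminal domain selects the substrate. Many with a PRY-SPRY domain restrict viruses or tune the RIG-I, MDA5 and cGAS pathways of interferon induction, and interferon in turn raises their own transcription. Others repress chromatin through a PHD finger and bromodomain, act in neurons and muscle through NHL repeats, or sit in membranes.

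Against the custom reference, 54 of the 68 members had at least 1 estimated read in some library, 47 had more than 3 reads in some library and 32 had more than 3 reads in all 9 libraries. That reference listed no reads for 14 members in any library, among them Trim38, Trim29, Trim71 and the muscle RING finger genes Trim54, Trim55 and Trim63. The deposited gene counts listed 58 members with counts, including 1 count each for Trim71 and Trim63. A filter on low counts left 42 members for testing. Of the 26 not tested, 14 had no reads, 7 had at most 3 reads in any library and 5 went higher, up to 23 reads. That filter keeps a gene seen in 1 group alone. Trim2, Trim40 and Trim6 had at most 5 reads in any wildtype library and passed through the transgenic groups, so their tests are not independent of the filter, and counts over the tested members are a description.

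Libraries held 6464089 to 8053017 reads assigned to coding transcripts. Values are given as CPM, reads scaled to library size with edgeR's TMM factors, and the limit that a count of 0 allows, 3 reads, was 0.326 to 0.495 CPM. The transgenes matched the labels on the log2-like scale of the authors: TCL1A was at 14.9 to 15.6 in Eµ-TCL1 mice and at most 6.96 elsewhere, and MTCP1 was at 11.1 to 12.3 in Eµ-MTCP1 mice and at most 6.19 elsewhere. Column names place 8 libraries on lane L005 and wildtype Z2755 on L001. Z2755 was the highest wildtype mouse for 14 of the 42 tested members, against 12 and 16 for the other two. Of the B cell markers, Cd79a was at 2430 to 4080 CPM, Cd79b at 1600 to 2900 CPM, Ms4a1 at 367 to 782 CPM and Pax5 at 28.6 to 58.5 CPM over the 9 libraries. Summed markers of other cells were at 2.28 to 39 CPM (T cells), 0 to 8.76 CPM (NK cells), 0.138 to 2.21 CPM (megakaryocytes), 142 to 1650 CPM (myeloid cells) and 75.4 to 2770 CPM (plasma cells), and their part in the results was not tested. Of the plasma cell markers Sdc1, Jchain and Prdm1, only Prdm1 was called, higher in both models. With bulk RNA, fewer cells of a type and less RNA per cell cannot be told apart, and the p-values below measure the spread between mice.

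The promoters of the interferon-linked Trim genes on chromosome 7 are shown first because many of them share a motif near the start of transcription. RefSeq promoter windows (GRCm38.p6, 250 bases before to 50 after each start) were at hand for 53 of the 68 members, 33 of them tested. The motif searched was the paired site GAAANNGAAA, on both strands, the core of the interferon-stimulated response element that STAT and IRF factors read. It lay in 10 of the 67 member windows (14.9%), against 3.44% of all 32851 windows. Of these 10 windows, 7 were among the 11 windows of the chromosome 7 cluster. By gene it was found for 9 members: Trim2, Trim21, Trim26, Trim34a, Trim5, Trim12a, Trim12c, Trim30a and Trim30d. Capitals below mark the match, and each stretch runs from 60 bases before the start to 30 bases from it. Within the cluster 6 of the 10 genes held a match, and Trim6, Trim34b, Trim30b and Trim30c did not. Trim6 is given as an example of a window with none, because it was called higher in Eµ-TCL1.
Trim34a: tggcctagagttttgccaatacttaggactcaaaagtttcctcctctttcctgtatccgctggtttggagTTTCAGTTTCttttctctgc
Trim5: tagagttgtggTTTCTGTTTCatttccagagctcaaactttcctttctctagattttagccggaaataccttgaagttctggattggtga
Trim12a: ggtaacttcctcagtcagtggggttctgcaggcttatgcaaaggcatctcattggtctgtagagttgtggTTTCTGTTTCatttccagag
Trim12c: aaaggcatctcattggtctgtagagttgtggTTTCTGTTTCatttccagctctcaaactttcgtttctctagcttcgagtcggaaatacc
Trim30a: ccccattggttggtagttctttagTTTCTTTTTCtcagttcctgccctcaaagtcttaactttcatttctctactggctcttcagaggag
Trim30d: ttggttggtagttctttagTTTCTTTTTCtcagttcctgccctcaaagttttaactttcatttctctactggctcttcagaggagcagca
Trim6: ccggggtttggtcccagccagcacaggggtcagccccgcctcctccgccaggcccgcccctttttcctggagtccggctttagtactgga

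These stretches lie at chr7:104244397-104244486 and chr7:104218735-104218824 on the plus strand, and at chr7:104288077-104288166, chr7:104315466-104315555, chr7:104353320-104353409, chr7:104465164-104465253 and chr7:104507820-104507909 on the minus strand. Counted from the RefSeq start, the first base of the match was 10 bases after it in Trim34a and Trim12a, and 49, 29, 36 and 41 bases before it in Trim5, Trim12c, Trim30a and Trim30d. The RefSeq start and the nearest transcript start of the annotation used for the gene coordinates (GENCODE) differed by 29 bases for Trim12a, 12 for Trim5 and 11 for Trim12c, and by the latter the Trim12a match lay before the start. Matches in paralogs were not independent. The windows of Trim5 and Trim12a shared an unbroken run of 241 bases, those of Trim12a and Trim12c 71 bases, and those of Trim30a and Trim30d 118 bases. An E box, CACGTG, lay in the windows of Trim25, Trim39 and Trim46, or 4.48% of member windows against 7.15% of all windows.

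Trim2 and Trim40 rose in both leukemias, and no other member was called in both by the main edgeR fit. With DESeq2, Trim7, Trim36 and Trim59 were also called in both, all lower. Some other edgeR settings did so too. Trim7 was called in both with no expression filter, and Trim7 and Trim59 with library size alone. Trim36 was called in both with the standard mouse reference, with the 2 compared groups only and without Z2641. Without Z2785 Trim59 was called in both, and without Z2641 Trim6 was, higher. Trim2 is an NHL-repeat ubiquitin ligase best known from neurons, and Trim40 is a RING protein described in the gut as a brake on NF-kappaB. Throughout, Eµ-MTCP1 mice are listed in the order Z2641, Z2606 and Z2551, Eµ-TCL1 mice in the order C1594, B4437 and B4376, and wildtype mice in the order Z2785, Z2755 and Z2754. Of the 42 members tested with edgeR's quasi-likelihood test, 7 passed an adjusted p of 0.05 in Eµ-MTCP1 against wildtype, where 9.48% of all 11165 genes tested passed. Higher were 2 members (5.49% of all genes) and lower were 5 (3.99% of all genes). In Eµ-TCL1 against wildtype 4 members passed, where 9.2% of all genes did. Here 3 were higher (5.07% of all genes) and 1 was lower (4.13% of all genes). Both comparisons used the same 3 wildtype mice, so their calls are not independent of each other. In all, 9 members were called in at least 1 model and 33 in neither. The matching shares of all genes, for either model or for both, were not computed, so these counts are a description only. A member is termed called below only by this edgeR fit, unless another setting is named.

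Trim2 (chr3:84160439-84306877, minus strand) had 121, 137 and 83 reads in the Eµ-MTCP1 mice, 103, 112 and 170 in the Eµ-TCL1 mice and 3, 0 and 0 in the wildtype mice. Every leukemic library therefore lay above every wildtype library. Scaled for depth, Eµ-MTCP1 mice had 17.7 ± 3.53 CPM of Trim2 and Eµ-TCL1 mice 17.2 ± 5.45 CPM (mean ± SD, n = 3 each). The ratio of summed reads to wildtype, scaled for depth, was 142 in Eµ-MTCP1, with a 95% counting interval of 48.1 to 690, and 136 in Eµ-TCL1, with an interval of 46.3 to 664. These Clopper-Pearson intervals cover counting error only. The fitted log2 fold changes were 6.92 ± 0.76 (SE, adjusted p = 0.000519) and 6.88 ± 0.76 (adjusted p = 0.000518) by edgeR. With 3 wildtype reads in all, these sizes are poorly fixed: they were 5.65 and 5.52 with the deposited gene counts, and 10.03 and 9.99 without Z2785, the one wildtype mouse with reads.

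Trim40 (chr17:36881598-36890123, minus strand) gave 55, 102 and 34 reads in Eµ-MTCP1, 99, 124 and 39 in Eµ-TCL1 and 0, 2 and 3 in wildtype. The groups did not overlap with wildtype, while the 2 models overlapped with each other. Scaled for depth, summed reads were 47.6 times those of wildtype in Eµ-MTCP1 (95% counting interval 20 to 148) and 55.6 times in Eµ-TCL1 (23.5 to 173). On the log2 scale the fitted differences were 5.45 ± 0.77 (adjusted p = 0.00188) and 5.69 ± 0.77 (adjusted p = 0.00139, edgeR). With the deposited gene counts they were 6.11 and 6.08, and without Z2754 they were 6.11 and 6.35. The deposited gene counts, which were not limited to coding sequence, listed 350, 442 and 124 for Trim40 in Eµ-MTCP1, 333, 496 and 162 in Eµ-TCL1 and 0, 12 and 4 in wildtype.

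Because both genes rose, the bases before their starts are given, from 250 bases before the annotated start to 30 bases from it. Neither stretch held a match, so no letter is in capitals. For Trim2 the window shown is that of Trim2-201 (chr3:84270754-84271033, minus strand). The GAAANNGAAA match of this gene lay in another of its 5 windows, whose start is that of Trim2-202. The Trim40 stretch is chr17:36890096-36890375 on the minus strand.
Trim2: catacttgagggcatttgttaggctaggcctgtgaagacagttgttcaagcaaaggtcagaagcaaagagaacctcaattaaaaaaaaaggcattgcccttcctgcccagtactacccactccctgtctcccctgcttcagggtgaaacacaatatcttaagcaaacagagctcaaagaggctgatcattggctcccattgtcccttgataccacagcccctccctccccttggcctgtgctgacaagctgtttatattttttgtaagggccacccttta
Trim40: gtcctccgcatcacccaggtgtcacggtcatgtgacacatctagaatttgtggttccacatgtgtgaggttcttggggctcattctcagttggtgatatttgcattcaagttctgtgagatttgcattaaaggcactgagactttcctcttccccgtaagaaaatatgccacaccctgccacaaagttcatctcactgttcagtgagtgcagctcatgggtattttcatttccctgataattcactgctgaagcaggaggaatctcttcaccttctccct

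**Figure D1:**
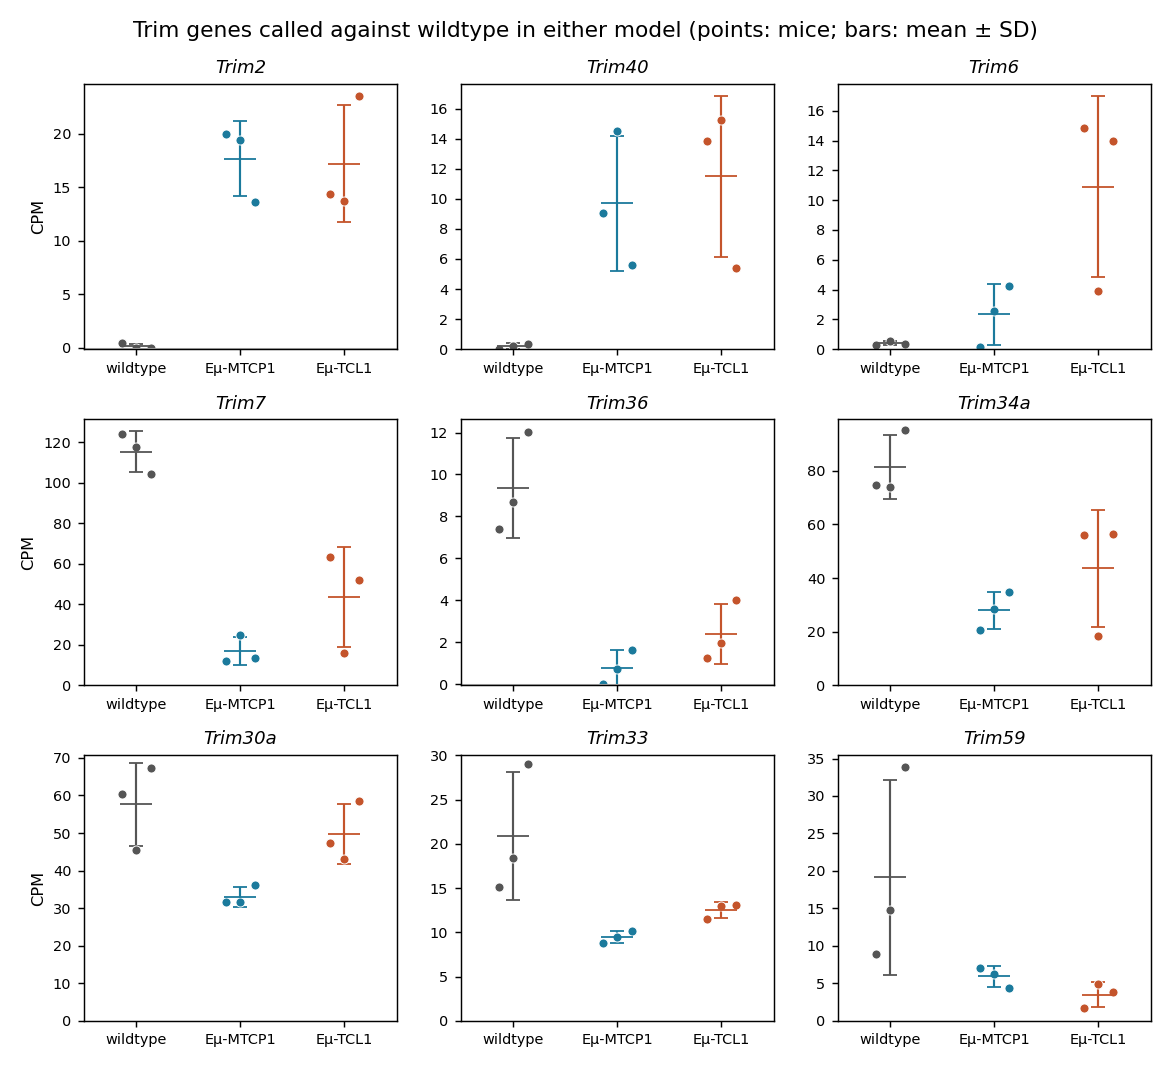
Points give the CPM of each mouse for the 9 members called against wildtype in either model, with bars at the group mean ± SD (n = 3). Trim2 and Trim40 sit near 0 in wildtype and at 5.39 CPM or more in every leukemic mouse, while Trim7 sits at 104 to 124 CPM in wildtype and at 12.1 to 63.0 CPM in the leukemic mice.

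Trim7 fell in Eµ-MTCP1. It encodes a PRY-SPRY ligase first described as a partner of glycogenin, and it spans chr11:48826140-48852209. Levels were 12.1, 24.9 and 13.4 CPM in Eµ-MTCP1, 63.0, 16 and 51.7 in Eµ-TCL1 and 124, 118 and 104 in wildtype. Both leukemia groups lay below all wildtype mice, and B4437 alone among the Eµ-TCL1 mice reached down into the Eµ-MTCP1 range. Against wildtype, Trim7 was 6.84-fold lower in Eµ-MTCP1 (log2 fold change -2.77 ± 0.46, adjusted p = 0.00457, edgeR), a call that held in all 19 alternatives. In Eµ-TCL1 the difference was -1.40 ± 0.44 with an adjusted p of 0.0724 by edgeR, which did not pass. It passed in 3 of the 19 alternatives.

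Trim36, a microtubule-associated member known from sperm and dividing cells, was sparse throughout. Reads numbered 0, 5 and 10 in Eµ-MTCP1, 9, 16 and 29 in Eµ-TCL1 and 49, 80 and 97 in wildtype, so neither leukemia overlapped with wildtype. The fall in Eµ-MTCP1 was -3.55 ± 0.86 on the log2 scale (adjusted p = 0.0284, edgeR). It was lost in 4 of the 9 fits that left out a mouse, namely Z2606 or any wildtype mouse, with adjusted p up to 0.112. The size was -2.66 with the standard mouse reference and -4.60 without Z2551. In Eµ-TCL1 the value was -1.95 ± 0.78 (edgeR adjusted p = 0.152), and it was called lower in 4 of the 19 alternatives. Trim46, the other C-I member tested, lay between 0.165 and 14.2 CPM over all mice and was not called.

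Many antiviral members lie together. A cluster of 10 Trim genes fills 289 kb of chromosome 7 (chr7:104218793-104507849), and in order they are Trim6, Trim34a, Trim5, Trim12a, Trim34b, Trim12c, Trim30b, Trim30c, Trim30a and Trim30d. All 10 were tested. In Eµ-MTCP1 against wildtype 2 were called, both lower, where 3.99% of all genes were called lower, and 8 of 10 log2 fold changes were negative with a median of -0.52, where the median over all genes was -0.02. In Eµ-TCL1 1 was called, higher, where 5.07% of all genes were called higher, and the median was -0.06. Added up, the cluster gave 137, 195 and 210 CPM in Eµ-MTCP1, 286, 194 and 314 in Eµ-TCL1 and 283, 259 and 339 in wildtype. All Eµ-MTCP1 mice lay below all wildtype mice, and B4437 lay among the Eµ-MTCP1 mice. The cluster is 3.38 Mb from Fam168a, where the MTCP1 transgene sits in line Z36, and the part of that site in these values was not tested.

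Trim34a, an interferon-induced gene (chr7:104244457-104262234), fell in Eµ-MTCP1. It measured 20.6, 28.6 and 34.6 CPM in Eµ-MTCP1, 56.0, 18.3 and 56.6 in Eµ-TCL1 and 74.9, 74.0 and 95.4 in wildtype. Each leukemic mouse lay below each wildtype mouse. The fall was 2.91-fold in Eµ-MTCP1 (log2 fold change -1.54 ± 0.38, adjusted p = 0.0313, edgeR), while -0.90 ± 0.38 in Eµ-TCL1 did not pass (adjusted p = 0.167). Leaving out any one of the 6 mice compared ended the Eµ-MTCP1 call, with adjusted p of 0.0611 to 0.112. Its promoter stretch, printed above, holds the pair in the form TTTCAGTTTC.

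Trim30a, which restrains Toll-like receptor signaling to NF-kappaB, was at 31.6, 31.5 and 36.1 CPM in Eµ-MTCP1, 47.3, 43.1 and 58.5 in Eµ-TCL1 and 60.3, 45.6 and 67.3 in wildtype. Here the Eµ-MTCP1 mice stood apart from both other groups, which overlapped. The fall in Eµ-MTCP1 was 1.75-fold (log2 fold change -0.80 ± 0.21, adjusted p = 0.0356, edgeR), and the value in Eµ-TCL1 was -0.22 ± 0.20 (adjusted p = 0.554). The first of these was lost in 6 of the 9 fits that left out a mouse, with adjusted p of 0.0515 to 0.118, and kept without Z2755, B4437 or B4376. Trim12a, a mouse relative of primate TRIM5, was at 44.9, 44.6 and 50.2 CPM in Eµ-MTCP1, 60.6, 52.8 and 80.5 in Eµ-TCL1 and 64.5, 63.5 and 71.1 in wildtype. It was not called in any comparison (edgeR adjusted p = 0.132 for Eµ-MTCP1 against wildtype), except lower in Eµ-MTCP1 with library size alone.

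Trim6 (chr7:104218793-104235152) was the one cluster gene called higher, in Eµ-TCL1 against wildtype. It builds free ubiquitin chains that activate IKKε downstream of the interferon receptor. Reads were 106, 32 and 101 in Eµ-TCL1, 1, 18 and 26 in Eµ-MTCP1 and 2, 5 and 3 in wildtype. All Eµ-TCL1 mice lay above all wildtype mice, and Z2641 alone of the Eµ-MTCP1 mice lay at the wildtype level. Against wildtype the log2 fold change was 4.67 ± 0.96 in Eµ-TCL1 (adjusted p = 0.0131, edgeR) and 2.45 ± 0.95 in Eµ-MTCP1 (adjusted p = 0.140), where it was called higher without Z2641. Without any one wildtype mouse the Eµ-TCL1 call was lost, with adjusted p of 0.0541 to 0.0695. The log2 fold change was 1.97 with the standard mouse reference, and 5.71 with transcript length offsets on the custom one.

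Trim5 ranged from 13.9 to 27.7 CPM in the leukemic mice and from 17.4 to 22.9 CPM in wildtype. Trim12c lay at 6.44 to 29.9 CPM over all 9 mice, and Trim30d at 7.10 to 19.3 CPM. None of these was called. Reads of 8 members, Trim5, Trim8, Trim12a, Trim12c, Trim30a, Trim30d, Trim34a and Trim34b, did not sum to whole numbers (tolerance 0.01 read) in at least 1 library. For Trim8 this was 1 library, with 383.056 reads. Salmon estimates how reads that fit several transcripts are shared out, so the values of the cluster paralogs are uncertain.

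**Figure D2:**
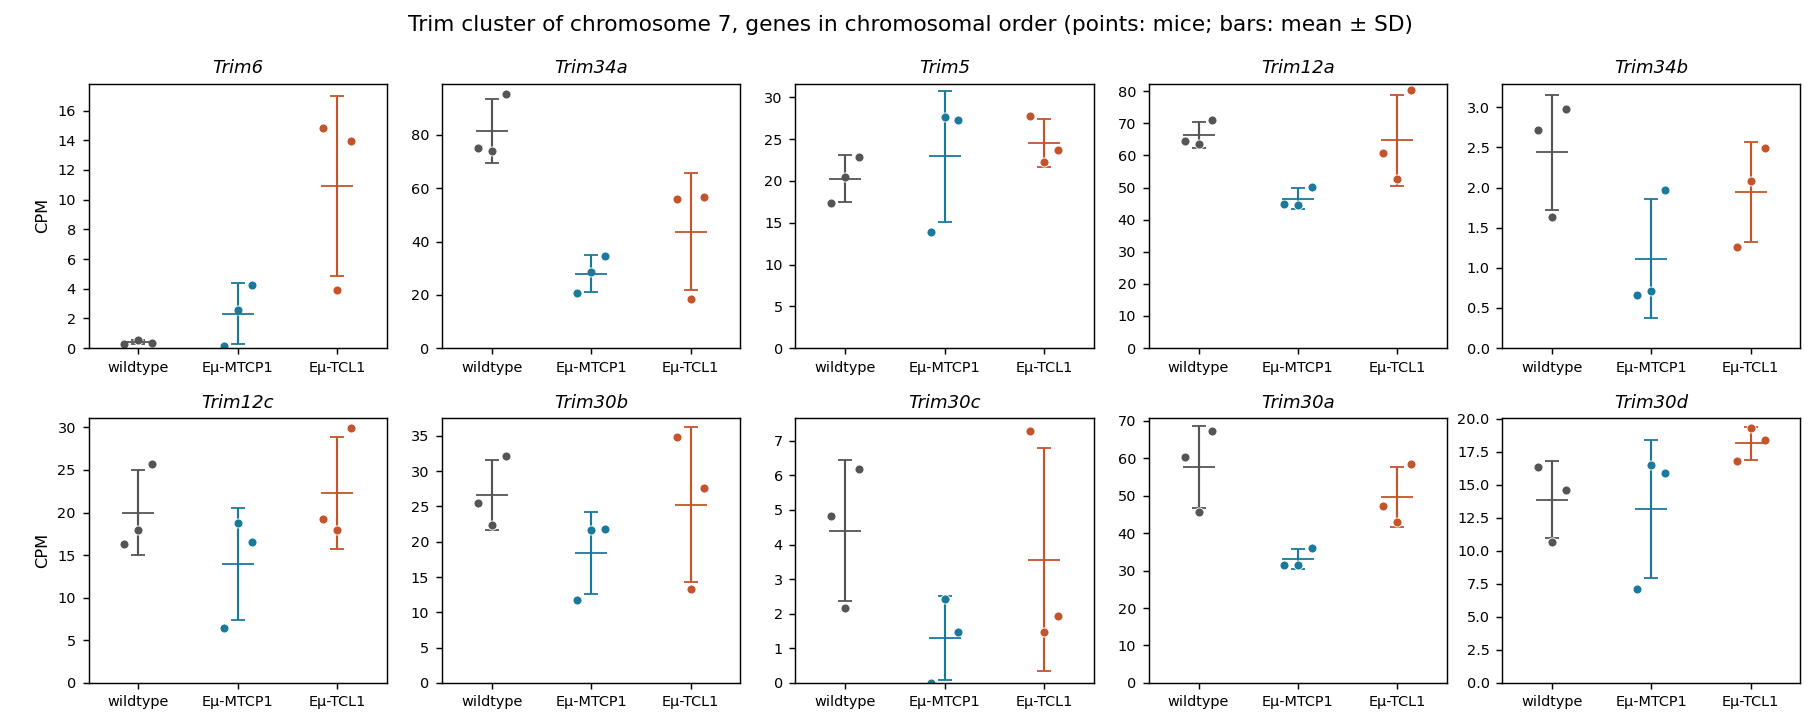
CPM of each mouse for the 10 Trim genes of the chromosome 7 cluster in chromosomal order, with bars at the group mean ± SD (n = 3). Trim34a and Trim30a are lower in Eµ-MTCP1 than in wildtype without overlap, Trim6 is higher in Eµ-TCL1 than in wildtype, and Trim5 overlaps between all groups.

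Trim21, Trim25, Trim27, Trim56 and Trim65, ligases of innate immune signaling outside the cluster, were not called by edgeR. Trim25, the ligase that activates RIG-I, had the highest median TPM of all members over the 9 libraries, 63.1. TPM corrects for transcript length and so allows genes to be compared. Within wildtype alone the median TPM of Trim7, 75.4, was above that of Trim25, 66.7, but this order is not resolved. The Trim7 value includes Trim7-206, a transcript annotated for nonsense-mediated decay, at 28.3, 30.3 and 11.0 TPM in wildtype. The coding Trim7-201 was at 47.2, 60.2 and 54.9 TPM there. The CPM values of Trim25 were 121, 155 and 170 in Eµ-MTCP1, 128, 124 and 134 in Eµ-TCL1 and 148, 112 and 115 in wildtype, and all groups overlapped. The cytosolic antibody receptor Trim21 was at 13.1 to 23.8, 16 to 33.3 and 20.6 to 25.4 CPM in the same group order. Trim27, a repressor of NF-kappaB and IRF signaling, was at 86.1 to 127, 89.3 to 100.3 and 88.0 to 120 CPM. Trim56, which ubiquitinates STING, lay at 12.4 to 22.8, 8.68 to 21.3 and 12.1 to 22.7 CPM. Trim65, a ligase of MDA5, was at 4.79, 1.99 and 5.09 CPM in Eµ-MTCP1, 5.74, 8.60 and 9.54 in Eµ-TCL1 and 12.8, 10.4 and 7.31 in wildtype (edgeR adjusted p = 0.0843 for Eµ-MTCP1 against wildtype), and did not pass. It was called lower there in 3 of the 19 alternatives, DESeq2, the standard mouse reference and library size alone.

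The next highest medians over the 9 libraries belonged to Trim35 (median TPM 40.9), Trim26 (39.7), Trim11 (39.5) and Trim14 (38.8), all above the chromatin regulator Trim28 at 38.3. None of these was called in any comparison. Trim35 was at 76.7 to 99.8 CPM in Eµ-MTCP1, 51.2 to 93.1 in Eµ-TCL1 and 64.8 to 125 CPM in wildtype. Trim26 gave 94.8 to 101, 104 to 143 and 100.1 to 134 CPM, Trim11 63.3 to 83.0, 50.2 to 96.4 and 51.7 to 69.8 CPM, and Trim14 52.6 to 58.2, 40.9 to 60.6 and 54.0 to 78.1 CPM. The TPM ranges of Trim35, Trim26, Trim11, Trim14 and Trim28 over the 9 mice overlap, so their order is not resolved.

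**Figure D3:**
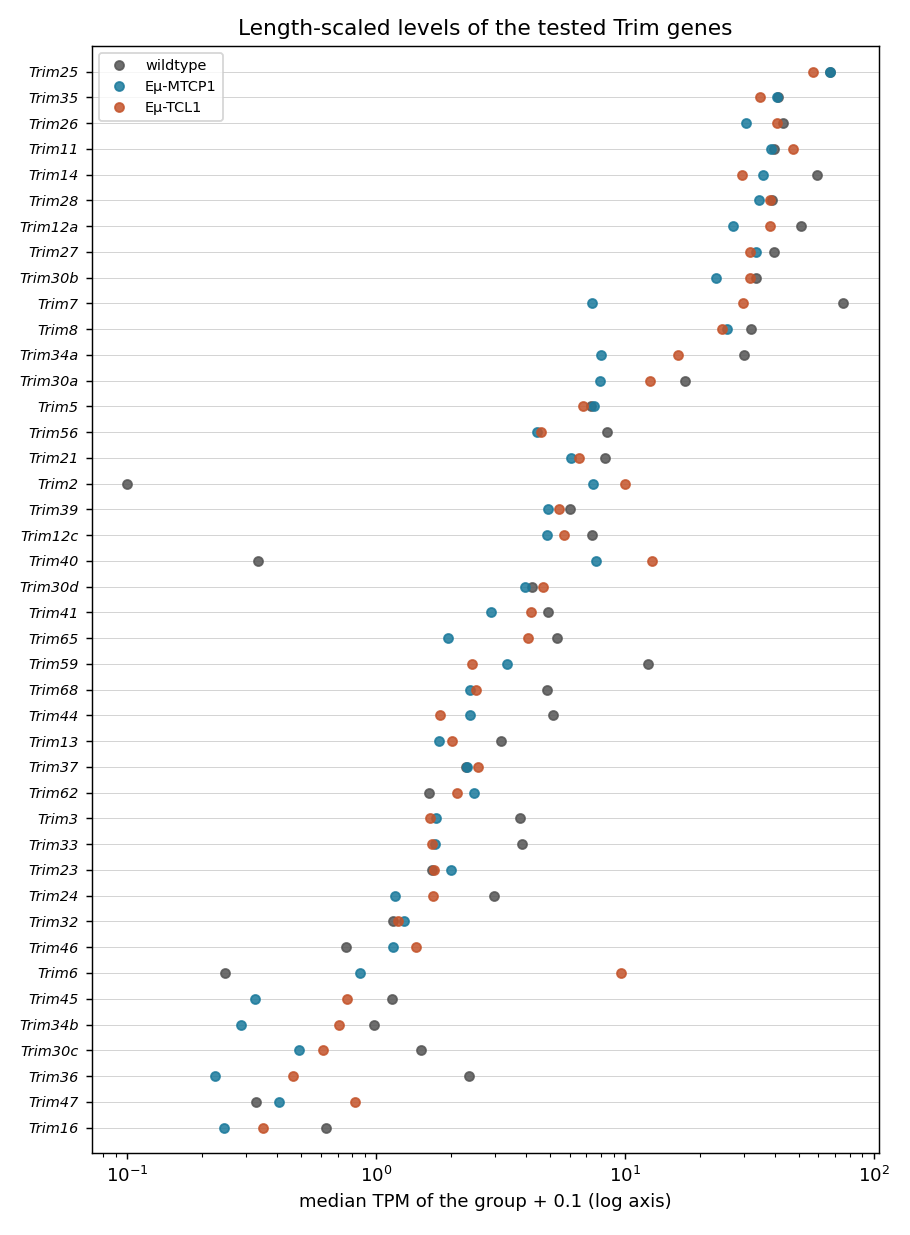
Median TPM of each group plus 0.1 on a log axis for the 42 tested members, ordered by the median over all 9 libraries. The wildtype points of Trim2, Trim40 and Trim6 lie to the left of both leukemias and those of Trim7 and Trim36 to the right.

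Among the PHD and bromodomain members, Trim33 fell in Eµ-MTCP1. Trim33 (chr3:103279293-103358775), also called TIF1γ, acts on Smad4 in TGF-beta signaling. Its levels were 8.75, 9.52 and 10.2 CPM in Eµ-MTCP1, 11.5, 13.0 and 13.1 in Eµ-TCL1 and 15.1, 18.4 and 29.0 in wildtype, so the 3 groups did not overlap with one another. The log2 fold change was -1.14 ± 0.29 in Eµ-MTCP1 (adjusted p = 0.0377, edgeR) and -0.73 ± 0.29 in Eµ-TCL1 (adjusted p = 0.149). The call was lost in 8 of the 9 fits that left out a mouse (adjusted p of 0.0511 to 0.126), and with the deposited gene counts its adjusted p was 0.0547. Trim24, a nuclear receptor cofactor of the same group, was at 11.6, 8.24 and 7.38 CPM in Eµ-MTCP1, 13.0, 9.21 and 11.6 in Eµ-TCL1 and 18.6, 13.3 and 27.3 in wildtype. Neither comparison passed for Trim24 (edgeR adjusted p = 0.0641 and 0.164), and the Eµ-MTCP1 value moved from -1.12 to -0.51 with the standard mouse reference. It was called lower in Eµ-MTCP1 with DESeq2 and with library size alone. Trim28, the corepressor of KRAB zinc finger proteins, was at 177 to 261, 148 to 211 and 163 to 260 CPM, with log2 fold changes of 0.04 ± 0.24 and -0.15 ± 0.24.

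Trim59, a membrane-anchored ligase, fell in Eµ-TCL1. It was at 7.10, 6.25 and 4.43 CPM in Eµ-MTCP1, 1.68, 4.91 and 3.87 in Eµ-TCL1 and 8.91, 14.8 and 33.8 in wildtype. Wildtype mice spread widely, with Z2754 the highest, and none overlapped with either model. The difference was -2.45 ± 0.55 in Eµ-TCL1 (adjusted p = 0.0206, edgeR) and -1.69 ± 0.54 in Eµ-MTCP1 (adjusted p = 0.0792), where 3 of the 19 alternatives called it lower. Without C1594, B4376 or Z2754 the Eµ-TCL1 call was lost, with adjusted p of 0.0549 to 0.0941. Without Z2754 the log2 fold changes were -1.76 in Eµ-TCL1 and -1.01 in Eµ-MTCP1. Trim13, the other transmembrane member, whose human ortholog lies in a region often deleted in CLL, was at 2.62 to 7.43, 3.73 to 6.16 and 5.54 to 10.3 CPM and was not called.

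No other NHL member was called by edgeR. Trim3 was at 3.14, 7.96 and 9.68 CPM in Eµ-MTCP1, 8.54, 3.68 and 6.22 in Eµ-TCL1 and 15.1, 20.2 and 13.0 in wildtype. Both leukemias lay below wildtype for Trim3, and neither difference passed (edgeR adjusted p = 0.133 and 0.0889). In Eµ-TCL1 it was called lower in 3 of the 19 alternatives, with DESeq2, with the 2 compared groups only and without Z2641. Trim32, a ligase mutated in limb-girdle muscular dystrophy, covered 3.22 to 8.04 CPM over all mice. Trim44, which lacks a RING finger, lay between 1.94 and 3.81 CPM in Eµ-TCL1 and 4.09 to 14 CPM in wildtype (log2 fold change -1.50 ± 0.56, edgeR adjusted p = 0.123). Few reads of Trim44 were assigned to its coding sequence, with 14 to 129 per library against 150 to 559 in the deposited gene counts, where the log2 fold change was -0.17 (edgeR adjusted p = 0.738). Without Z2755, the highest wildtype mouse, it was -0.76.

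The erythroid members were almost silent. Trim58 had 1 read in 1 library. Trim10 had 3, 1 and 0 reads in Eµ-MTCP1, 3, 23 and 0 in Eµ-TCL1 and 0, 0 and 3 in wildtype, with B4437 as the one library above the limit of 3 reads. Summed globin and other erythroid markers were at 69.1 CPM in B4437 and at 316 CPM in Z2641, where Trim10 had 3 reads.

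**Figure D4:**
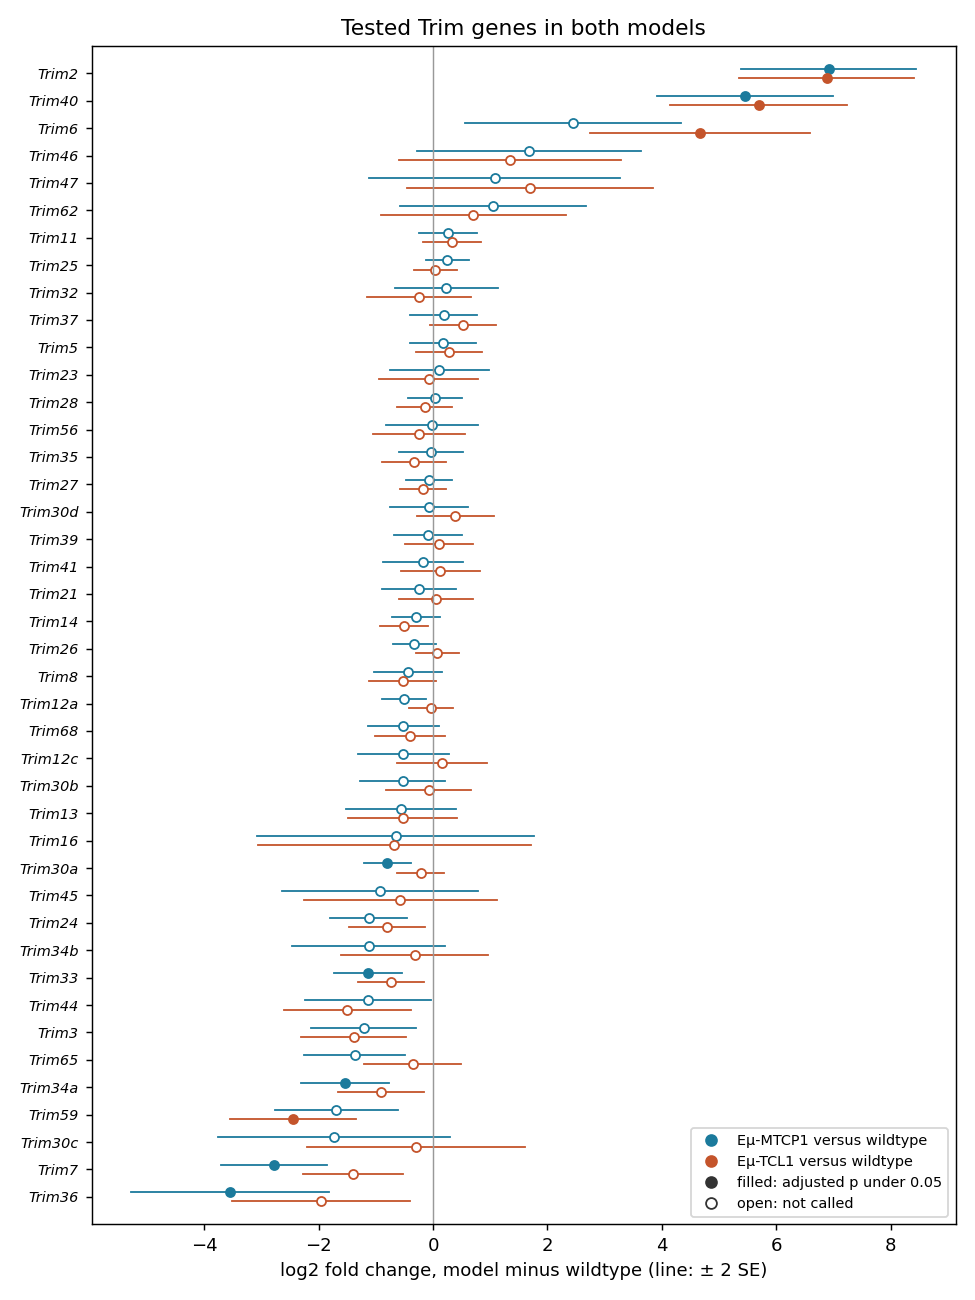
Fitted log2 fold changes against wildtype for the 42 tested members in Eµ-MTCP1 and Eµ-TCL1 (points, with lines at ± 2 SE), filled where the adjusted p was under 0.05. Trim2 and Trim40 are filled in both models, Trim7, Trim36, Trim34a, Trim30a and Trim33 only for Eµ-MTCP1, and Trim6 and Trim59 only for Eµ-TCL1.

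Taking all 42 tested members side by side, the median log2 fold change was -0.31 in Eµ-MTCP1 and -0.20 in Eµ-TCL1, against -0.02 and -0.01 over all genes tested. Values were negative for 29 and 26 members. Groups did not overlap for 14 members in Eµ-MTCP1 against wildtype, 2 higher and 12 lower, where 29.9% of all genes did not overlap. For Eµ-TCL1 the same count was 14, 6 higher and 8 lower, against 32.6% of all genes. The share of members, 33.3% in both, was near that of all genes. Summed over the 68 members, the family gave 1180, 1211 and 1295 CPM in Eµ-MTCP1, 1388, 1117 and 1424 in Eµ-TCL1 and 1510, 1628 and 1381 in wildtype. Without Trim7 the Eµ-MTCP1 and wildtype sums overlapped, with Z2551 at 1281 CPM and Z2754 at 1277 CPM.

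By subfamily, the PRY-SPRY group (C-IV) had 36 members, 23 of them tested, with 3 called lower in Eµ-MTCP1 (3.99% of all genes) and 1 called higher in Eµ-TCL1 (5.07% of all genes). All 3 members filed in the PHD and bromodomain group (C-VI) were tested, with medians of -1.12 and -0.73 in the 2 models and 1 call, Trim33. Trim66 was filed with the members without a RING finger and was not tested. The muscle RING finger group had 3 members and none was tested.

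The leukemias were also compared directly. No member passed adjustment in Eµ-TCL1 against Eµ-MTCP1 with edgeR (smallest adjusted p 0.629), and none did with DESeq2, while 0.0448% of all genes were called by edgeR. At an unadjusted p under 0.05 there were 5 members, Trim7, Trim30a, Trim6, Trim12a and Trim65, all higher in Eµ-TCL1, where 6.42% of all genes reached that level. Groups did not overlap for 7 members, 6 of them higher in Eµ-TCL1, against 11.0% of all genes. For Trim30a the lowest Eµ-TCL1 mouse was at 43.1 CPM and the highest Eµ-MTCP1 mouse at 36.1 CPM (log2 difference 0.59 ± 0.21, edgeR adjusted p = 0.678). The differences were larger for Trim6, 2.22 ± 0.83 (edgeR adjusted p = 0.685), and Trim7, 1.37 ± 0.45 (edgeR adjusted p = 0.629), whose groups overlapped. Trim65 differed by 1.01 ± 0.44 (edgeR adjusted p = 0.749), or 0.40 with the deposited gene counts, and Trim12a by 0.47 ± 0.19 (edgeR adjusted p = 0.701). All 10 cluster genes had positive differences, with a median of 0.61. That 5 members were called lower in Eµ-MTCP1 and 1 in Eµ-TCL1 does not show that the models differ, since this comparison found none.

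Interferon-induced genes outside the family were read in the same libraries, from a list of 29 genes of which 28 were tested. In Eµ-MTCP1 3 fell, Oasl1 (log2 fold change -4.22, edgeR adjusted p = 0.00379), Stat2 (-1.63, adjusted p = 0.00744) and Usp18 (-3.42, adjusted p = 0.0248), and none rose, with a list median of -1.12. Over all genes 3.99% were called lower in that comparison and 4.13% in Eµ-TCL1. In Eµ-TCL1 1 fell, Stat2 (-1.14, edgeR adjusted p = 0.036), with a median of -0.19. Summed over the list, levels were 663, 758 and 760 CPM in Eµ-MTCP1, 741, 917 and 1990 in Eµ-TCL1 and 1520, 1270 and 1310 in wildtype. As with the Trim cluster, every Eµ-MTCP1 mouse lay below every wildtype mouse. The order within Eµ-TCL1 differed, since C1594 was lowest for this list and B4437 for the cluster. Summed myeloid markers ran in the order of this list in Eµ-TCL1, at 142, 593 and 1370 CPM. In Eµ-MTCP1 they ran the other way, at 1120, 801 and 517 CPM, and their part in these sums was not tested.

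**Figure D5:**
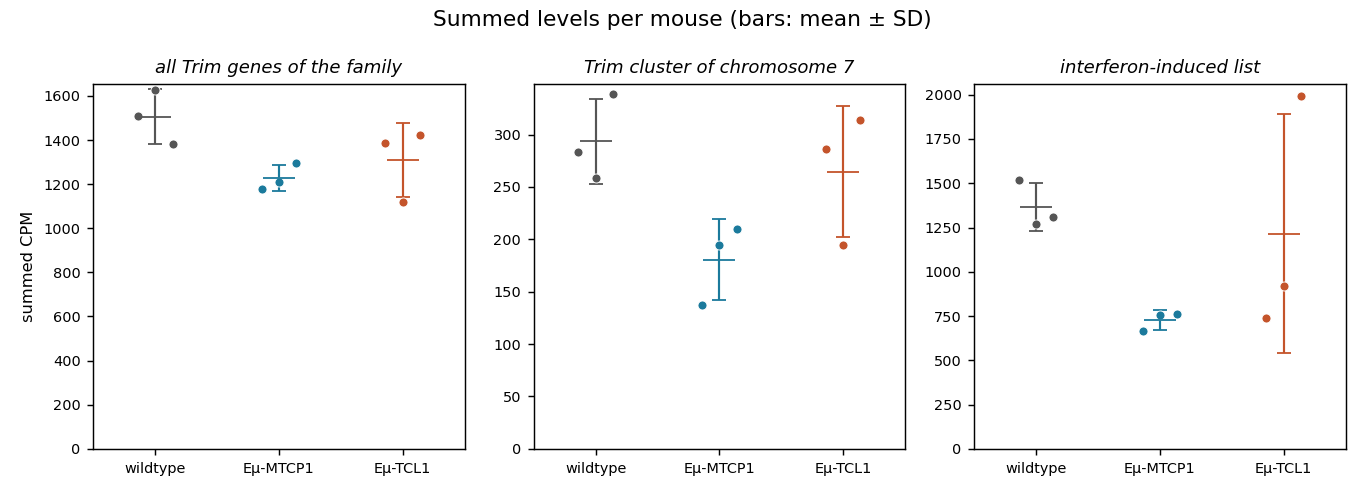
Summed CPM per mouse for all 68 Trim genes, for the 10 genes of the chromosome 7 cluster and for the 29 interferon-induced genes, with bars at the group mean ± SD (n = 3). The Eµ-MTCP1 mice lie below all wildtype mice in each panel, where the 10 cluster genes are also part of the 68, while the Eµ-TCL1 mice overlap with wildtype in the first and second panels and spread from 741 to 1990 CPM in the third.

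Known partners of the family were read from lists, where 4.13% of all genes were called lower in Eµ-TCL1 against wildtype. Of 12 tested genes of RIG-I, MDA5 and cGAS sensing, with list medians of -0.30 and 0.08 in Eµ-MTCP1 and Eµ-TCL1, none was called in Eµ-MTCP1 and 1 fell in Eµ-TCL1, Tmem173, which encodes STING (log2 fold change -1.03, edgeR adjusted p = 0.0348). Of 15 Trim28 corepressor partners, with medians of 0.02 and -0.11, none was called in Eµ-MTCP1 and 1 fell in Eµ-TCL1, the chromatin remodeler Chd3 (-3.58, edgeR adjusted p = 0.0098). In Eµ-MTCP1 Chd3 just missed the threshold (-2.28, edgeR adjusted p = 0.0537), at 1.49 to 22.6 CPM against 62.5 to 81.9 CPM in wildtype. The direct comparison of the models did not call Chd3 (edgeR adjusted p = 0.806). Family members under other symbols, Pml, Mid1, Mefv, Cmya5 and Bspry, were tested with a median of 0.30 in both models, and none was called in any comparison. Among these, Mid1 ranged from 5.91 to 69.2 CPM in Eµ-MTCP1, from 3.32 to 9.52 CPM in Eµ-TCL1 and from 1.3 to 7.4 CPM in wildtype, so Eµ-MTCP1 overlapped with wildtype (edgeR adjusted p = 0.0823).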

How the data were processed

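Libraries of 9 mice, 1 each, were analysed. According to the submitters' processing notes, CASAVA 1.8.2, HISAT2 2.0.6, Salmon 1.0.0, Subread, featureCounts and DESeq2 were used with build GRCm38.p4, and the role of each is given only in part. The labels name both a SMARTer and Nextera XT preparation and a TruSeq stranded kit, and the counting strand was not given in the sources used here, so overlapping and antisense genes cannot be told apart. The authors deposited Salmon estimated counts and TPM per transcript for each library, against a custom reference (87.3% of its transcript lengths are multiples of 3, so mostly coding length) and a standard one (35.0%). The authors also deposited whole counts per gene and a log2-like normalized table. Gene symbols of the latter gave the members, and its values were used here for the transgenes alone. Columns of the authors' own comparisons (fold changes and p-values) were not used.

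Estimated counts of the custom reference were summed per gene and rounded. Transcripts with no gene, at most 0.291% of reads, were left out. Genes passing edgeR's expression filter (11165 of 22154) were fitted with edgeR 4.0.16 (R 4.3.3), TMM factors (0.911 to 1.18), 1 coefficient per group and quasi-likelihood tests, with Benjamini-Hochberg adjustment over all genes tested at 0.05. Libraries held 6464089 to 8053017 reads. No molecular identifiers are named in the sources, so counting intervals cover counting error only. Libraries of a group differed by more than counting noise (chi-square per degree of freedom 40.5 to 131). Members were given mouse by mouse if they were called in a comparison, if they had an unadjusted p under 0.05 and groups that did not overlap, if they were among the 5 of highest median TPM, or by role (chromatin cofactors, innate immune ligases, the chromosome 7 cluster, NHL, membrane-anchored and erythroid members). The members, lists and alternatives were chosen with earlier results of these data known. DESeq2 1.42.0 was an alternative.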

Additional observations from a re-analysis of the deposited data

How the results depend on the processing

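Trim7 in Eµ-MTCP1 was called under all 19 alternatives, and no named log2 fold change turned its sign. Trim2 and Trim40 were called under them too, but they were tested because of the leukemic groups, so this is no support. With library size alone as scaling, 11 members were called in Eµ-MTCP1, 2 higher and 9 lower, where 391 of all genes were called higher and 730 lower. That scaling moved the median of all genes to -0.26 in Eµ-MTCP1 and -0.15 in Eµ-TCL1 (log2), and the share of calls that were higher to 34.9% and 42.9% of all genes called, from 57.9% and 55.1%. DESeq2 called 10 members in Eµ-MTCP1, 2 higher and 8 lower, and 7 in Eµ-TCL1, 3 higher and 4 lower, and 1646, 1695 and 73 of all genes in Eµ-MTCP1, Eµ-TCL1 and the direct comparison. With no expression filter 16 genes were called in the direct comparison. With the deposited gene counts, the sensing list had 1 call in Eµ-MTCP1 and 2 in Eµ-TCL1, and the Trim28 partners 2 in each. Of all genes, 849 were then called higher and 613 lower in Eµ-MTCP1, and 849 and 610 in Eµ-TCL1. Leaving out a mouse gave 3 to 6 members in Eµ-MTCP1, 2 to 6 in Eµ-TCL1 and 0 in the direct comparison, and 525 to 1028, 517 to 1240 and 5 to 8 of all genes. The lowest member counts came without Z2606 or Z2754 (3 in Eµ-MTCP1) and without Z2754 (2 in Eµ-TCL1). The cause was not tested. Trim33 was called in 7 of the 19 alternatives. No paired analysis was possible because the labels carry no replicate numbers and those used here only name the mice. Depth limits members at or under 3 reads, which were not tested.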

Other observations

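Trim6-205, a transcript of Trim6 with 444 coding bases, was at 5.79, 1.74 and 6.40 TPM in the Eµ-TCL1 mice and was listed at 0 in the other 6 mice. Those 6 had 1 to 26 reads of the gene, so its absence there cannot be read from the zeros. Trim6-201 was at 3.74, 0.992 and 3.28 TPM in the Eµ-TCL1 mice, at 0.0503, 0.760 and 1.29 TPM in the Eµ-MTCP1 mice and at 0, 0.237 and 0.146 TPM in wildtype. These estimates were given no test.

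Estimates for Trim2 were spread over several transcripts of the gene, among which Salmon shares out reads, so a value of 0 for one does not show that the mouse lacked it. Trim2-217, with 213 coding bases, was at 3.37, 2.20 and 0 TPM in the Eµ-MTCP1 mice and at 2.60, 6.97 and 6.58 TPM in the Eµ-TCL1 mice. Trim2-201 was at 3.94, 3.23 and 2.63 TPM and at 2.80, 0 and 4.85 TPM in the same order. In B4437, Trim2-204, with 2235 coding bases against 2313 in Trim2-201, was at 2.93 TPM, and in Z2551 the short Trim2-215 was also listed above 0.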
